A study of Mus musculus with 22 samples.

Results

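Cholesterol is made in a chain of enzyme steps whose genes are switched on together when a cell is short of sterol, and 7 of these sterol-regulated genes were followed here out of 24786 genes in each table. Hmgcs1, Idi1 and Fdps act in the mevalonate arm, Sqle and Lss in the sterol arm, and Insig1 and Srebf2 control the chain. They were chosen by name, with earlier results of these data known, and all 7 passed the filter on low values that is given with the tests. Bulk RNA of whole livers, thymuses and hepatic CD8+ T lymphocytes was sequenced in the series, whose title names dnTGFβRII Aire-/- mice with an overlap of autoimmune hepatitis and primary biliary cirrhosis. The comparisons rest on 6 whole livers of batch 2. They fall into 3 groups of 2: TG Aire-/- mice depleted of CD8+ T cells, TG Aire-/- mice without treatment, and Aire+/+ mice without treatment. Beside them stand liver CD8+ T cells of TG Aire-/-, TG Aire+/- and Aire-/- mice, with 500000 sorted cells and 1 library a group. All mice were C57BL/6 and 2 to 4 weeks old by their labels. TG was taken as the dnTGFβRII transgene of the title, a dominant-negative type II TGF-β receptor that is driven in T cells by the Cd4 promoter in this strain. Aire is the transcription factor by which thymic epithelium displays tissue antigens. The TG Aire-/- and Aire+/+ livers differ in both the transgene and Aire, so that the effects of the 2 alleles cannot be told apart in liver. How the cells were depleted is not given in the labels, and no mock-treated group was used here.

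Srebf2 encodes SREBP2, a transcription factor held in the membrane of the endoplasmic reticulum. When sterol is low, the escort protein Scap carries it to the Golgi, where proteases release the part that enters the nucleus and binds sterol regulatory elements, usually next to NF-Y and Sp1 boxes. Insig1 retains the Scap complex when sterol is plentiful, and it is itself a target of SREBP2. In liver the hepatocytes make most of the cholesterol, and T cells raise the same enzymes when they divide.

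Libraries that stand apart came first. Depth, inferred from the step between low values, was 20300000 to 22700000 reads in the 6 livers. Cd8a was listed at 0 and 0.187 RPKM (reads per kilobase of transcript, scaled to the mapped reads of the library) in the CD8-depleted livers, at 8.76 and 3.75 RPKM in the TG Aire-/- livers, and at 0.161 and 0.22 RPKM in the Aire+/+ livers. Aire was at 0 RPKM in both CD8-depleted livers, at 0.00471 and 0.301 RPKM in TG Aire-/- livers and at 0 RPKM in both Aire+/+ livers, so its level checks no label in liver. The summed level of 7 hepatocyte markers was 65109 and 38825 RPKM in CD8-depleted livers, 43314 and 28660 RPKM in TG Aire-/- livers, and 65102 and 63353 RPKM in Aire+/+ livers, so hepatocyte RNA was abundant in all 6. The sexes were uneven. By Xist and Ddx3y both CD8-depleted livers were male, while the TG Aire-/- and the Aire+/+ livers were 1 male (replicate 1) and 1 female (replicate 2) each. Replicate 2 of the CD8-depleted livers stood far from replicate 1 in several genes. Mup20, an adult male pheromone carrier, was at 52.7 RPKM in replicate 1 and 15866 RPKM in replicate 2 of the CD8-depleted livers, against 10.6 and 5.09 RPKM in TG Aire-/- livers and 1.14 and 1.99 RPKM in Aire+/+ livers. The acute phase gene Orm2 was at 30.9 RPKM in replicate 1 and 2248 RPKM in replicate 2 of the CD8-depleted livers, against 4.78 and 14.4 RPKM in TG Aire-/- livers and 14 and 11.4 RPKM in Aire+/+ livers. Mup20 and Orm2 were picked after their values were seen, and what sex, maturity or inflammation adds to the results on sterol genes was not tested. The results on CD8-depleted livers are therefore given with and without each of these 2 libraries.

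The promoter windows show what the genes carry near their starts. They come from the RefSeq table of GRCm38.p6, which held 5 of the 7 genes. Fdps and Sqle had no entry. The 4 printed are shown because their motifs differ and they stand for the mevalonate arm (Hmgcs1, Idi1), the retention protein (Insig1) and the factor itself (Srebf2). Each is the 250 bases before the RefSeq start on the plus strand. The gene positions given further on are from GENCODE, whose starts lie inside the printed windows of Idi1, Insig1 and Srebf2. Distances of motifs hold for the RefSeq start only. Capitals mark matches to the sterol regulatory element (TCACNCCAC, or TCACNCCA, a shorter form added after the data were seen), the NF-Y box (CCAAT on either strand) and the E-box (CACGTG).
Hmgcs1 chr13:119690101-119690350: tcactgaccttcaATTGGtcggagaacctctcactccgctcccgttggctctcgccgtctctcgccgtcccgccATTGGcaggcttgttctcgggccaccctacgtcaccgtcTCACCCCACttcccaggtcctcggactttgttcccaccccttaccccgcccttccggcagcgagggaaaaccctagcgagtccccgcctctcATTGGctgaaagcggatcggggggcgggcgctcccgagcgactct
Idi1 chr13:8885356-8885605: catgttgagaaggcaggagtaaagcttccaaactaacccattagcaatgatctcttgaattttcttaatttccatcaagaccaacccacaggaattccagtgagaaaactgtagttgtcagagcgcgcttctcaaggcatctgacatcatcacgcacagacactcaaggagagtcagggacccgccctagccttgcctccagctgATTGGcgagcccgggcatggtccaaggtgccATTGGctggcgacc
Insig1 chr5:28071162-28071411: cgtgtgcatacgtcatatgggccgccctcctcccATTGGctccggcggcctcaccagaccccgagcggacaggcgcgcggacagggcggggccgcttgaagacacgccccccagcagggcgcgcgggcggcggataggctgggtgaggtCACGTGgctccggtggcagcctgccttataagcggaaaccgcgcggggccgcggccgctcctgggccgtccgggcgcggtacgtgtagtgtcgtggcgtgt
Srebf2 chr15:82147019-82147268: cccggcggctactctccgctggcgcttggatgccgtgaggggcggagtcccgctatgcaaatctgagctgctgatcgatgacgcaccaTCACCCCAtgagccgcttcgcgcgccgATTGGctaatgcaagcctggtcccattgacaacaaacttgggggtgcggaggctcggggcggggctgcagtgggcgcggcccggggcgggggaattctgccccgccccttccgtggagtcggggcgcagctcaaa

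Both strands of windows of 300 bases, from 250 before to 50 after the start, were searched. The full sterol element lay in the Hmgcs1 window alone of the 5, where it spans positions −137 to −129 with 0 at the first transcribed base, and in 1.24% of 32851 promoters of the table. The shorter form is the start of the full one, so the Hmgcs1 match counts for both; it lay also in the Srebf2 window, at −162 to −155, and in 4.36% of all promoters. NF-Y boxes lay in 5 of 5 windows, against 37.4% of all promoters. Sp1 boxes (GGGCGG) likewise lay in 5 of 5, against 35.7% of all. Of 13 other synthesis enzymes with a window, 12 held an NF-Y box, 12 an Sp1 box and none the full sterol element. An enzyme with several windows, such as Dhcr7, was counted where any of them matched, while the shares are of single promoters. The shorter sterol element lay in 1 of these 13 enzymes, Msmo1. The E-box, found in 7.15% of promoters, lay in the Insig1 window and in 3 of the 13 enzymes (Hsd17b7, Sc5d and Dhcr7). A match describes letters in these windows and says nothing of binding, which was not measured.

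**Figure D1:**
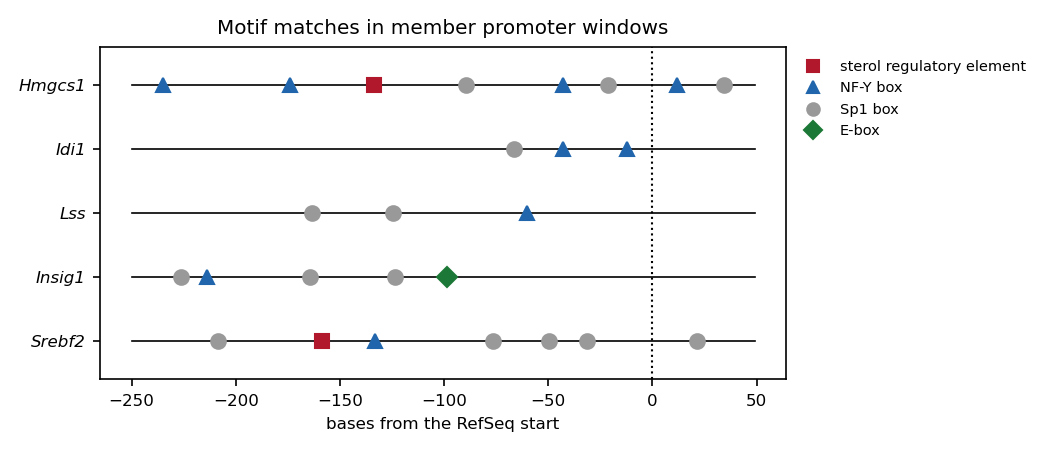
Motif matches in the promoter windows of the 5 genes with a RefSeq entry. The horizontal axis gives bases from the RefSeq start (dotted line), and each symbol is centred on 1 match on either strand; the red square is the shorter sterol regulatory element. Every window holds NF-Y and Sp1 boxes, and the sterol element lies in the Hmgcs1 and Srebf2 windows.

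Untreated TG Aire-/- livers against Aire+/+ livers show how the sterol genes differ between these 2 genotypes. Most of the chain was low in TG Aire-/- livers while Sqle was high. Insig1 passed the test and fell. The other 3 genes with lower, separate libraries (Hmgcs1, Idi1 and Fdps) and the single gene with higher ones (Sqle) did not pass when all 6 livers shared 1 estimate of spread. They did pass when the 2 groups were fitted alone, so their calls depend on how the spread of the CD8-depleted livers enters.

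Hmgcs1, on chr13:119690379-119708260, makes HMG-CoA, the substrate of the committed step. Its level was 15.7 and 17.5 RPKM in TG Aire-/- livers and 30.4 and 30.2 RPKM in Aire+/+ livers. Idi1 (chr13:8885501-8892451) isomerises isopentenyl diphosphate, and its level was 2.04 and 2.03 RPKM in TG Aire-/- livers against 9.33 and 14.6 RPKM in Aire+/+ livers. Fdps (chr3:89093588-89101959, minus strand) makes farnesyl diphosphate, where the sterol and isoprenoid branches part. Its level was 5.11 and 6.33 RPKM in TG Aire-/- livers and 13.5 and 16.8 RPKM in Aire+/+ livers. For these 3 genes both TG Aire-/- livers lay below both Aire+/+ livers. On the log2(RPKM + 1) scale, which understates the change of low genes, the differences were −0.83 (SE 0.91) for Hmgcs1, −2.07 (SE 0.94) for Idi1 and −1.27 (SE 0.66) for Fdps. Their limma adjusted p values were 0.484, 0.117 and 0.161 in that order over all genes, with Benjamini-Hochberg adjustment. Fitted with the TG Aire-/- and Aire+/+ livers alone, all 3 fell, at limma adjusted p of 0.0279 for Hmgcs1, 0.00428 for Idi1 and 0.0113 for Fdps.

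Sqle (chr15:59315077-59331192), squalene epoxidase, carries out the first oxygen-dependent step and is a rate-limiting enzyme of the sterol arm. It ran the other way, at 8.09 and 9.96 RPKM in TG Aire-/- livers and 1.85 and 2.88 RPKM in Aire+/+ livers. Both TG Aire-/- livers lay above both Aire+/+ livers, and the mean was 3.82 times as high in TG Aire-/- livers. The log2 difference was 1.59 (SE 0.68, limma adjusted p = 0.102 with all 6 livers and 0.0075 with the 2 groups alone). Sqle did not stand for its arm, since the 11 sterol arm enzymes outside the 7 genes had a median log2 difference of −0.94. The ratio of Sqle to Idi1 within a library sets these 2 genes side by side. It was 3.97 and 4.91 in TG Aire-/- livers and 0.198 and 0.197 in Aire+/+ livers. Sqle RPKM over Fdps RPKM was 1.58 and 1.57 in TG Aire-/- livers and 0.136 and 0.171 in Aire+/+ livers. Lss (chr10:76531588-76557138), which closes the rings of the first sterol right after Sqle, was at 2.24 and 2.6 RPKM in TG Aire-/- livers and 2.13 and 3.02 RPKM in Aire+/+ livers. These overlapped, with a log2 difference of −0.05 (SE 0.35, limma adjusted p = 0.913).

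Insig1 (chr5:28071363-28078662) was at 10.3 and 14.9 RPKM in TG Aire-/- livers and 27.1 and 43 RPKM in Aire+/+ livers. The groups did not overlap, and Insig1 averaged 12.6 ± 3.25 RPKM in TG Aire-/- livers and 35.1 ± 11.2 RPKM in Aire+/+ livers (SD, n = 2 each). By limma it fell by 1.39 in log2 units, with an SE of 0.35 and an adjusted p of 0.0205. Leaving out any 1 of the 4 TG Aire-/- and Aire+/+ libraries ended this call, at limma adjusted p of 0.0505 without Aire+/+ replicate 1, 0.171 without Aire+/+ replicate 2, 0.0842 without TG Aire-/- replicate 1 and 0.0629 without TG Aire-/- replicate 2. Srebf2 (chr15:82147181-82205379), the gene of the factor itself, was at 7.97 and 9.57 RPKM in TG Aire-/- livers and 8.79 and 10.9 RPKM in Aire+/+ livers. Its libraries overlapped, with a log2 difference of −0.15 (SE 0.29, limma adjusted p = 0.705).

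In counts, none of the 7 genes rose and 1 fell by limma at an adjusted p under 0.05, where 31.8% of the 12231 genes tested rose and 5.5% fell. The tested genes had at least 1 RPKM in at least 2 of the 6 livers. Both TG Aire-/- libraries lay above both Aire+/+ libraries for 1 of the 7 and below them for 4, where 63% of all genes lay above and 15.4% below. The median log2 difference was −0.83 over the 7 genes and 0.53 over all genes. That shift of all genes depends on scaling. With samples scaled by their median log ratio it was 0.12, and 2148 genes rose and 1191 fell instead of 3892 and 673. The directions of the 7 genes did not turn under any of the 3 other scalings in this comparison. In bulk livers fewer cells of a type and less RNA per cell cannot be told apart, and the mix of cells moved strongly here. All 6 T-cell markers, all 5 macrophage markers and all 4 endothelial markers rose in TG Aire-/- livers. Hepatocyte markers had a median log2 difference of −0.97, with 1 of 7 fallen. What this mix adds to the lower sterol genes was not tested.

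The rest of the pathway, 20 synthesis enzymes with the 5 above, leaned the same way. In TG Aire-/- livers 1 rose and 3 fell, where 31.8% of all genes rose and 5.5% fell. Of the 20 estimates 16 were below 0, with a median of −0.82 against 0.53 for all genes. Tm7sf2, a sterol C14 reductase, was at 4 and 2.79 RPKM in TG Aire-/- livers and 23.4 and 15.8 RPKM in Aire+/+ livers, and fell by 2.22 in log2 units (limma, SE 0.46, adjusted p = 0.0103). Acat2, which joins 2 acetyl groups at the head of the chain, fell by 1.59 (limma adjusted p = 0.0301). Lbr went the other way. It was at 10.4 and 11.1 RPKM in TG Aire-/- livers and 3.53 and 4.87 RPKM in Aire+/+ livers, and rose by 1.19 in log2 units (limma, SE 0.26, adjusted p = 0.0117). Lbr and Tm7sf2 share the C14 reductase step, and Lbr is also the lamin B receptor of the nuclear envelope, which blood cells express strongly. Lbr was no longer called with median log ratio scaling (0.75, limma adjusted p = 0.0537), under which 7 enzymes fell and none rose. Of 12058 genes tested with that scaling 2148 rose and 1191 fell. With only the TG Aire-/- and Aire+/+ livers in the fit 2 enzymes rose (Sqle and Lbr) and 9 fell. In that fit 4236 of 12231 genes rose and 860 fell. Without TG Aire-/- replicate 2, and likewise without Aire+/+ replicate 1, none was called, and without Aire+/+ replicate 2 only 1 fell.

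**Figure D2:**
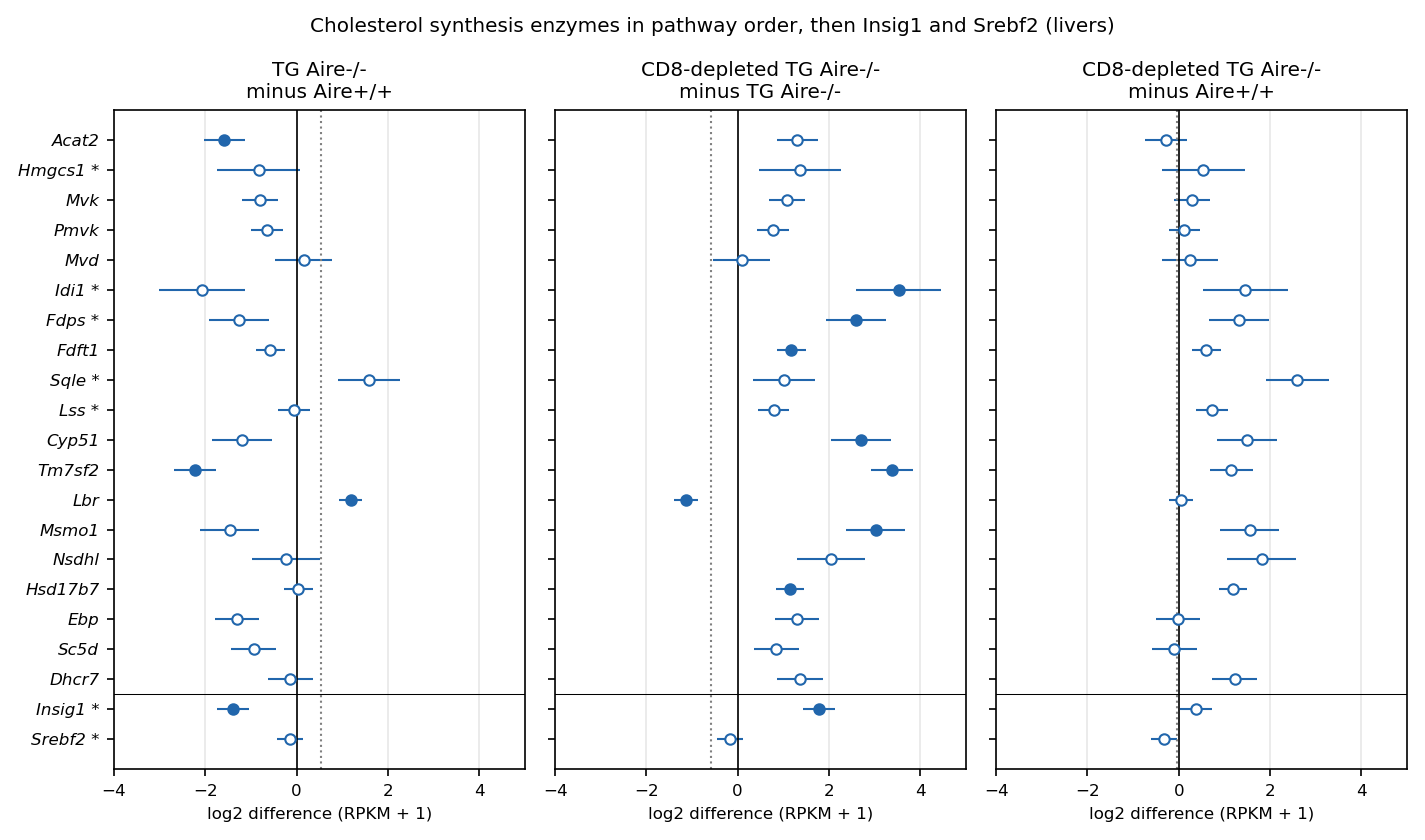
Log2 differences of RPKM + 1 for 19 of the 20 cholesterol synthesis enzymes in pathway order and for Insig1 and Srebf2 (stars mark the 7 genes followed here), in 3 liver comparisons. Bars are standard errors from limma with all 6 livers, filled points passed an adjusted p of 0.05, and the dotted line is the median of all genes tested. Most points lie left of 0 in TG Aire-/- minus Aire+/+ and right of 0 in CD8-depleted minus TG Aire-/-, with Lbr opposite in both, Sqle to the right in all 3 and no filled point in the third.

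Depletion of CD8+ T cells asks how far the sterol genes depend on those cells in TG Aire-/- mice. Idi1, Fdps and Insig1 rose in CD8-depleted livers against TG Aire-/- livers, and their differences stayed positive with either CD8-depleted library left out. A fit with 1 CD8-depleted library takes its spread from the other 2 groups alone. Its p-values do not carry the distance between the 2 CD8-depleted livers, so calls from such fits are no check of replication. Hmgcs1 and Sqle were far higher in replicate 2 of the CD8-depleted livers and not in replicate 1. Srebf2 barely differed.

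Idi1 was at 9.57 and 114.7 RPKM in CD8-depleted livers and 2.04 and 2.03 RPKM in TG Aire-/- livers. Both CD8-depleted livers lay above both others, and Idi1 rose by 3.53 in log2 units (limma, SE 0.94, adjusted p = 0.0236). Without the high replicate 2 the difference was 1.80, and without replicate 1 it was 5.25. Fdps was at 16.9 and 89.8 RPKM in CD8-depleted livers and 5.11 and 6.33 RPKM in TG Aire-/- livers. It rose by 2.59 (SE 0.66, limma adjusted p = 0.0207). The difference was 1.42 without replicate 2 of the CD8-depleted livers and 3.76 without replicate 1. The calls of Idi1 and Fdps were lost without TG Aire-/- replicate 1 (limma adjusted p of 0.0936 for Idi1 and 0.0918 for Fdps), without TG Aire-/- replicate 2 (0.129 and 0.105) and with no filter on low values (0.0783 and 0.0676). Insig1 was at 36.8 and 54.8 RPKM in CD8-depleted livers and 10.3 and 14.9 RPKM in TG Aire-/- livers, again without overlap. It rose by 1.77 (SE 0.35, limma adjusted p = 0.00919). Its log2 difference stayed between 1.49 and 2.05 as each library was left out in turn.

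Hmgcs1 was at 13.1 and 144.9 RPKM in CD8-depleted livers and 15.7 and 17.5 RPKM in TG Aire-/- livers. Replicate 1 lay below both TG Aire-/- livers and replicate 2 far above, so the groups overlapped. The log2 difference was 1.37 (SE 0.91, limma adjusted p = 0.26), and it was −0.32 without replicate 2 of the CD8-depleted livers (0.361) and 3.05 without replicate 1 (0.00795). Sqle had the same shape, at 7.71 and 45.6 RPKM in CD8-depleted livers and 8.09 and 9.96 RPKM in TG Aire-/- livers. Its log2 difference was 1.01 (SE 0.68, limma adjusted p = 0.267), and −0.20 without replicate 2 (0.644) and 2.22 without replicate 1 (0.0144). Lss was at 3.28 and 7.1 RPKM in CD8-depleted livers and 2.24 and 2.6 RPKM in TG Aire-/- livers. Its libraries did not overlap, but the log2 difference of 0.79 (SE 0.35) did not pass the test (limma adjusted p = 0.108); without replicate 1 of the CD8-depleted livers it was 1.25 and passed (0.0398). Srebf2 was at 6.17 and 9.44 RPKM in CD8-depleted livers and 7.97 and 9.57 RPKM in TG Aire-/- livers, which overlapped. By limma the log2 difference was −0.17, with an SE of 0.29 and an adjusted p of 0.657. It became positive at 0.07 with upper quartile scaling, 0.33 with median log ratio scaling and 0.10 without replicate 1 of the CD8-depleted livers.

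By count 3 of the 7 rose and none fell in CD8-depleted livers, where 4.49% of all genes rose and 33.5% fell. Both CD8-depleted libraries lay above both TG Aire-/- libraries for 4 of the 7 and below for none, where 10.1% of all genes lay above and 60.6% below. The median log2 difference was 1.37 over the 7 and −0.58 over all genes, which was −0.12 with median log ratio scaling. That scaling gave 923 genes higher and 2001 lower, in place of 549 and 4097. Markers of T cells (6 of 6), endothelium (4 of 4) and dividing cells (5 of 5) fell, and so did 4 of 5 macrophage markers, while hepatocyte markers had a median log2 difference of 0.69 with none of 7 called. The part of these cells in the result was not tested. The TG Aire-/- livers enter this comparison and the one before, so opposite signs in the 2 are not independent.

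**Figure D3:**
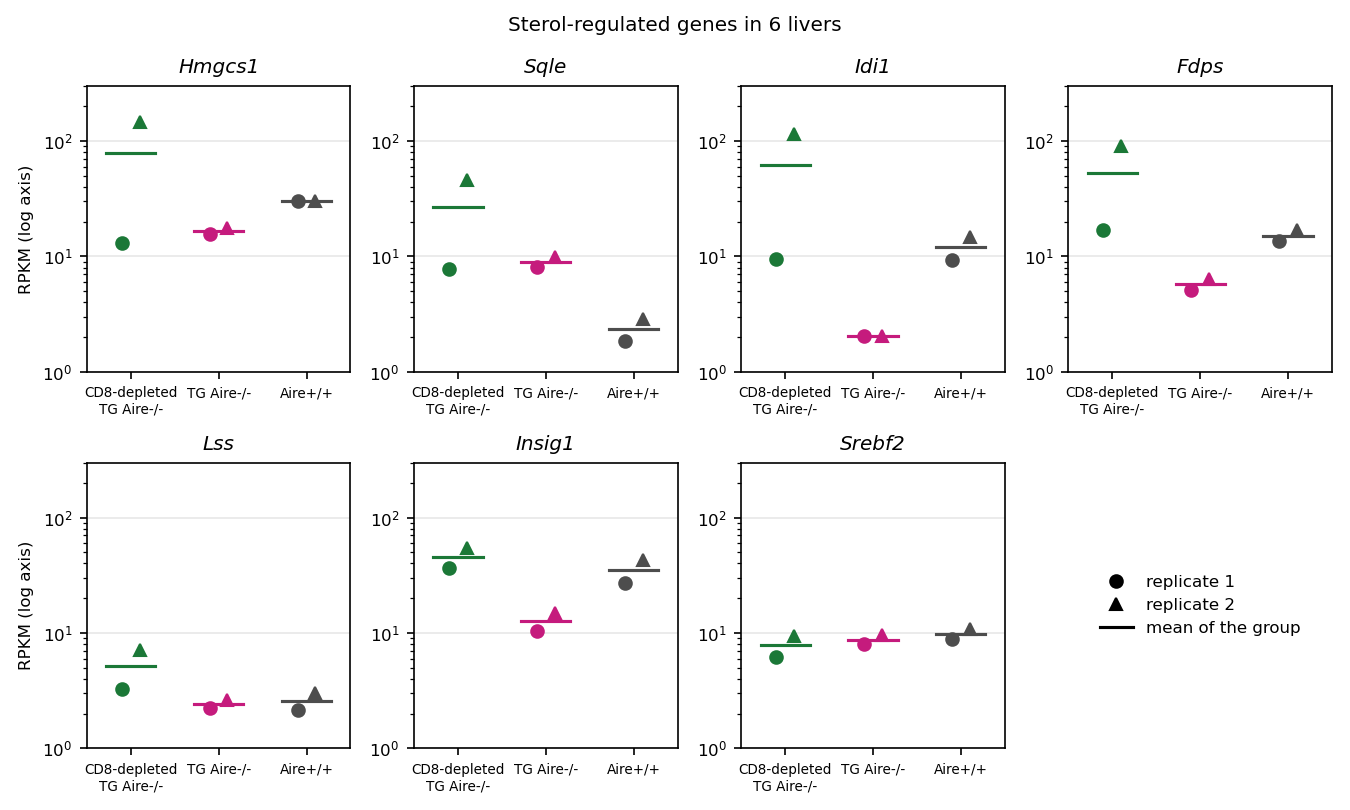
RPKM of the 7 genes in the 6 livers, on log axes. Circles are replicate 1, triangles replicate 2 and lines the mean of each group of 2. Replicate 2 of the CD8-depleted livers is the highest liver for every gene but Srebf2, and the TG Aire-/- livers are the lowest for Idi1, Fdps and Insig1.

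Of the 20 synthesis enzymes 8 rose and 1 fell in CD8-depleted livers against TG Aire-/- livers, where 4.49% of all genes rose and 33.5% fell. For the enzymes 19 estimates were above 0, and the median was 1.30 against −0.58 for all genes. Besides Idi1 and Fdps the enzymes that rose included Tm7sf2, Msmo1, Cyp51, Fdft1 and Hsd17b7. Tm7sf2 was at 27 and 71.8 RPKM in CD8-depleted livers and 4 and 2.79 RPKM in TG Aire-/- livers, and rose by 3.37 (SE 0.46, limma adjusted p = 0.00292). Msmo1, a methyl sterol oxidase, was at 28.2 and 136.2 RPKM in CD8-depleted livers and 5.76 and 7.96 RPKM in TG Aire-/- livers, and rose by 3.02 (limma adjusted p = 0.0114). Cyp51, the lanosterol demethylase, was at 8.93 and 49.1 RPKM in CD8-depleted livers and 2.55 and 2.33 RPKM in TG Aire-/- livers, and rose by 2.70 (limma adjusted p = 0.0178). Both CD8-depleted livers lay above both TG Aire-/- livers for these 3 enzymes. Lbr fell by 1.13 (limma adjusted p = 0.0138), to 4.26 and 4.43 RPKM in CD8-depleted livers against 10.4 and 11.1 RPKM in TG Aire-/- livers. Without replicate 2 of the CD8-depleted livers 6 enzymes rose, among them Idi1, Fdps, Tm7sf2, Msmo1 and Cyp51, and 2 fell, Lbr and Mvd. Mvd, the last enzyme before Idi1, was at 0.742 and 7.19 RPKM in CD8-depleted livers and 2.32 and 2.8 RPKM in TG Aire-/- livers; its log2 difference of 0.09 with both CD8-depleted libraries was −1.03 without replicate 2 (limma adjusted p = 0.0267). Without replicate 1 of the CD8-depleted livers 15 enzymes rose and none fell, and Lbr had a limma adjusted p of 0.0511. Median log ratio scaling also gave 15 higher, where 923 of 12058 genes were higher, with Lbr at −0.64 (limma adjusted p = 0.089). Without TG Aire-/- replicate 1 there were 4 that rose and 1 that fell, and without TG Aire-/- replicate 2 only Tm7sf2 was called. Cyp51 and Msmo1 lost their calls without either TG Aire-/- library, and Fdft1 and Hsd17b7 without any 1 library but CD8-depleted replicate 1.

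Against Aire+/+ livers the CD8-depleted livers show how far the sterol genes lay from Aire+/+ levels. None of the 7 passed the test. With replicate 1 most of the chain lay close to the Aire+/+ levels, and with replicate 2 most of it lay above. Sqle was at 7.71 and 45.6 RPKM in CD8-depleted livers and 1.85 and 2.88 RPKM in Aire+/+ livers. It was thus higher in both libraries, with a log2 difference of 2.60 (SE 0.68, limma adjusted p = 0.21) that was 1.39 without replicate 2 of the CD8-depleted livers. Fdps and Lss also had both CD8-depleted libraries above both Aire+/+ libraries. Fdps replicate 1, at 16.9 RPKM, lay next to the higher Aire+/+ liver at 16.8 RPKM, and the log2 difference was 1.32 (limma adjusted p = 0.537) and 0.15 without replicate 2. For Hmgcs1 replicate 1 of the CD8-depleted livers, at 13.1 RPKM, lay below both Aire+/+ livers and replicate 2, at 144.9 RPKM, above them, so that its log2 difference was 0.53 with both libraries and −1.15 without replicate 2. Idi1 differed by 1.46 (SE 0.94) and by −0.27 without replicate 2. Insig1 and Srebf2 overlapped the Aire+/+ livers, with log2 differences of 0.38 (SE 0.35) and −0.32 (SE 0.29).

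By limma 0 of the 7 rose or fell, 1 was past an unadjusted p of 0.05 (Sqle), and 0.221% of all genes rose and 0.327% fell. Libraries did not overlap for 3 of the 7, all higher in CD8-depleted livers, where 20.2% of all genes were higher and 28.8% lower in this way. The median log2 difference was 0.73 over the 7, 0.67 over the 20 enzymes and −0.04 over all genes. Without replicate 1 of the CD8-depleted livers 4 of the 7 were called higher, namely Hmgcs1 (limma adjusted p = 0.0253), Sqle (0.00992), Idi1 (0.0192) and Fdps (0.0253). Without replicate 2 none was called. This count thus rests on which CD8-depleted library is kept.

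The distance between the 2 CD8-depleted livers was itself large for the enzymes and small for the control genes, as a description with no test. Replicate 2 over replicate 1 was 12 for Idi1, 11.1 for Hmgcs1, 5.91 for Sqle and 5.33 for Fdps, but 2.16 for Lss, 1.53 for Srebf2 and 1.49 for Insig1. Replicate 2 was at least 1 log2 unit above replicate 1 for 4 of the 7 genes and 13 of the 20 enzymes, against 8.44% of all genes. It was at least 1 log2 unit above every one of the 5 other livers for the same 4 genes and for 10 of the 20 enzymes, against 0.719% of all genes (88 genes). None of the 10 genes of SREBP processing and control, the 10 tested genes of uptake and transport, the 9 of efflux and esterification or the 8 of the isoprenoid branch did so. The median log2 distance between the replicates was 2.35 over the 7 genes, 1.34 over the enzymes and 0.20 over all genes. Genes of fatty acid synthesis, chosen after their values were seen, were high in both CD8-depleted livers. Scd1, the stearoyl-CoA desaturase, was at 376.1 and 541.7 RPKM in CD8-depleted livers, 3.89 and 5.13 RPKM in TG Aire-/- livers and 1.47 and 2.48 RPKM in Aire+/+ livers. Thrsp, a lipogenic regulator, was at 65.1 and 140.8 RPKM in CD8-depleted livers, 0.845 and 0.44 RPKM in TG Aire-/- livers and 14.8 and 42.8 RPKM in Aire+/+ livers. Fasn, the fatty acid synthase, was at 12.9 and 28.7 RPKM in CD8-depleted livers, 2.5 and 2.26 RPKM in TG Aire-/- livers and 5.56 and 6.85 RPKM in Aire+/+ livers. The elongase gene Elovl6 was at 7.17 and 16.8 RPKM in CD8-depleted livers, 2.03 and 1.37 RPKM in TG Aire-/- livers and 0.854 and 0.776 RPKM in Aire+/+ livers. These 4 genes were all higher in replicate 2 than in replicate 1 of the CD8-depleted livers, and both replicates lay above the 4 livers of the other groups.

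**Figure D4:**
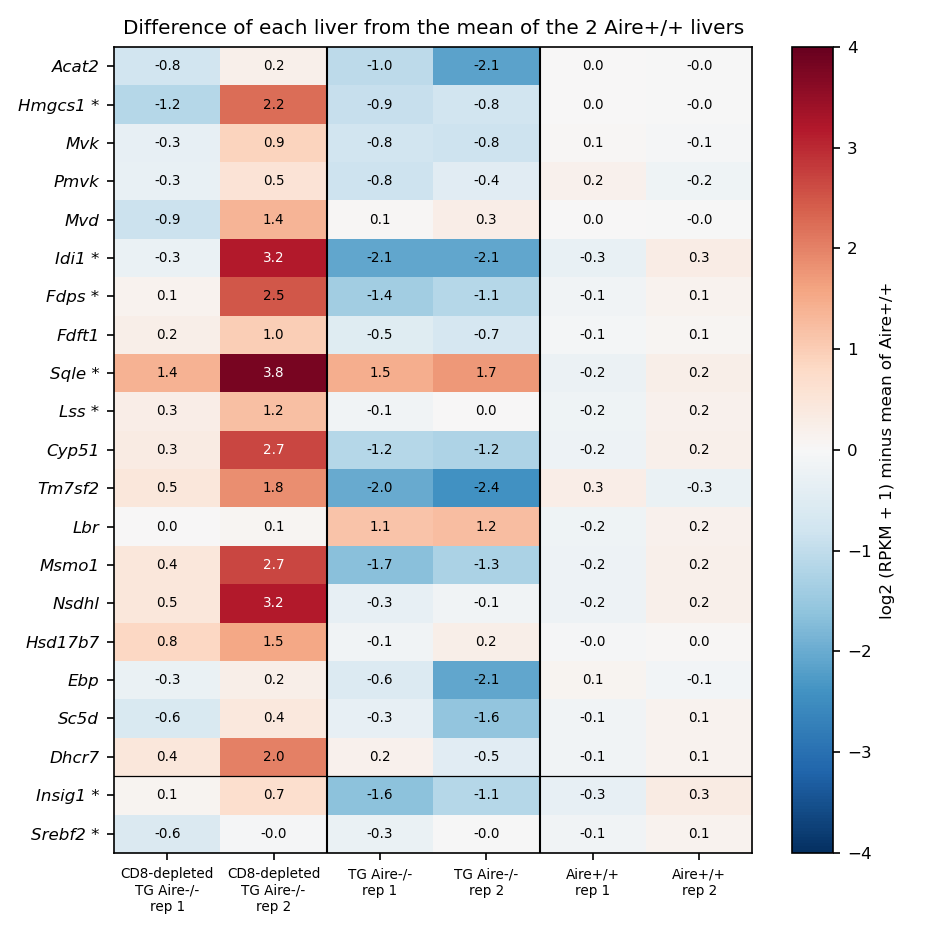
Difference of each liver from the mean of the 2 Aire+/+ livers, in log2 (RPKM + 1), for 19 of the 20 synthesis enzymes in pathway order and for Insig1 and Srebf2 (stars mark the 7 genes). Red is higher and blue lower than the Aire+/+ mean, and the printed figures are the differences. Replicate 2 of the CD8-depleted livers is red for most enzymes, from Hmgcs1 (2.22) and Idi1 (3.19) to Sqle (3.81), the TG Aire-/- livers are blue except at Sqle, Lbr and a few pale cells, and replicate 1 of the CD8-depleted livers lies between −1.2 and 1.4.

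The genes around the chain moved less uniformly. Of 10 genes of SREBP processing and control none was called in TG Aire-/- against Aire+/+ livers, where 31.8% of all genes rose and 5.5% fell. Their median log2 difference was 0.08, against 0.53 for all genes. Insig2, a relative of Insig1 that also retains Scap, fell in CD8-depleted livers by 1.31 (limma adjusted p = 0.0171), to 23.7 and 38.5 RPKM against 69.6 and 83.7 RPKM in TG Aire-/- livers, and Aire+/+ livers had 73.6 and 73.9 RPKM. Insig1 and Insig2 thus ran in opposite directions in CD8-depleted livers. Among 10 tested genes of uptake and intracellular transport 3 rose and none fell in TG Aire-/- against Aire+/+ livers, a share near the 31.8% of all genes that rose. Mylip, the ligase that marks lipoprotein receptors for breakdown and a target of LXR, was at 8.25 and 21 RPKM in TG Aire-/- livers and 2.45 and 2.39 RPKM in Aire+/+ livers, and rose by 2.06 (limma adjusted p = 0.0112). Npc2, which hands cholesterol out of lysosomes, rose by 1.80 (0.00753). The call of Mylip was lost without either Aire+/+ library or TG Aire-/- replicate 2 (limma adjusted p up to 0.0558), and that of Npc2 without Aire+/+ replicate 2 or TG Aire-/- replicate 2 (0.0623 each). In CD8-depleted against TG Aire-/- livers 4 of the 10 fell, among them Mylip, Npc2 and Lrpap1, where 33.5% of all genes fell, and Stard4, a cytosolic sterol carrier and SREBP2 target, rose by 0.96 (limma adjusted p = 0.0343). Median log ratio scaling ended the calls of Insig2, Npc2 and Lrpap1 in CD8-depleted livers, with no change of sign. In CD8-depleted livers the calls of Insig2 (limma adjusted p up to 0.0926) and Npc2 (up to 0.0959) were lost without CD8-depleted replicate 1 or TG Aire-/- replicate 2, and that of Mylip without TG Aire-/- replicate 2 (0.0506). Lrpap1 (up to 0.0928) was lost without either of these 2 libraries or either Aire+/+ library, and Stard4 (up to 0.104) without any 1 of the 6.

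Efflux, esterification and LXR genes split. In TG Aire-/- against Aire+/+ livers 3 of 9 rose and 4 fell, where 31.8% of all genes rose and 5.5% fell. Soat1, the acyltransferase that stores cholesterol as ester in macrophages and other cells, was at 9.12 and 16.3 RPKM in TG Aire-/- livers and 1.15 and 1.19 RPKM in Aire+/+ livers, and rose by 2.61 (limma adjusted p = 0.00293). The exporter Abcg1 rose by 2.44 (0.00207) and Nr1h2, which encodes LXRβ, by 0.87 (0.0279). The biliary sterol exporters Abcg5 and Abcg8 fell by 1.44 (0.0387) and 1.59 (0.0265), Soat2, the hepatocyte enzyme of the same reaction as Soat1, by 1.15 (0.0225) and the plasma enzyme Lcat by 1.28 (0.0278). Abcg5, Abcg8, Soat2 and Lcat are known from hepatocytes, and Abcg1 and Soat1 from macrophages, whose 5 markers rose. T-cell markers rose too. Sorted liver CD8+ T cells held Abcg1 at 23.3, 15.1 and 17.6 RPKM in TG Aire-/-, TG Aire+/- and Aire-/- cells. In the same order Soat2 was at 7.09, 8 and 5.31 RPKM and Soat1 at 1.72, 3.85 and 2.95 RPKM. Abcg5, Abcg8 and Lcat reached only 0.126, 0.0721 and 0.378 RPKM in these cells. The part of each cell type was not tested. Nr1h2 was no longer called with upper quartile or median log ratio scaling (0.67 and 0.40). Abcg5, Abcg8, Soat2, Lcat and Nr1h2 each lost the call without Aire+/+ replicate 1, Aire+/+ replicate 2 or TG Aire-/- replicate 2, and Soat2 also without TG Aire-/- replicate 1. Their limma adjusted p then reached 0.216 for Abcg5, 0.164 for Abcg8 and for Soat2, 0.178 for Lcat and 0.23 for Nr1h2, while Soat1 and Abcg1 stayed called without any 1 of the 6 libraries. In CD8-depleted against TG Aire-/- livers Soat1 (−2.47), Abcg1 (−1.80) and Nr1h2 (−0.98) fell and Abcg5 (1.42) and Abcg8 (1.46) rose, with limma adjusted p between 0.00349 and 0.0396. Abcg5, Abcg8 and Nr1h2 lost this call without CD8-depleted replicate 1 or TG Aire-/- replicate 2, Abcg8 also without TG Aire-/- replicate 1, and Abcg5 and Nr1h2 also without either Aire+/+ library. Their limma adjusted p reached 0.211 for Abcg5, 0.19 for Abcg8 and 0.0736 for Nr1h2, while Soat1 and Abcg1 stayed called here too without any 1 of the 6. In the non-sterol isoprenoid branch 3 of 8 rose in TG Aire-/- against Aire+/+ livers, namely Pggt1b (1.06), Fntb (0.99) and Pdss1 (0.98), a share near the 31.8% of all genes. In CD8-depleted against TG Aire-/- livers Fntb and Pdss1 fell, 2 of 8 where 33.5% of all genes fell. In TG Aire-/- against Aire+/+ livers all 3 calls were lost without either Aire+/+ library or TG Aire-/- replicate 2, and that of Pdss1 also without TG Aire-/- replicate 1. In CD8-depleted livers Fntb was lost without CD8-depleted replicate 1 or TG Aire-/- replicate 2 (limma adjusted p up to 0.0892), and Pdss1 without any 1 library but CD8-depleted replicate 1 (up to 0.0862). These genes of protein prenylation and coenzyme Q synthesis take the product of Fdps but had a median log2 difference of 0.62 in TG Aire-/- livers, near the 0.53 of all genes, and with median log ratio scaling none of these calls held in either comparison.

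Liver CD8+ T cells were compared as single libraries, with no replicate check and no p-value, so a gene was called where its log2 difference was at least 1 with at least 5 RPKM in 1 of the 2 libraries. Their T-cell marker sum was 1447, 1674 and 1488 RPKM in TG Aire-/-, TG Aire+/- and Aire-/- cells, and the hepatocyte sum was 2.41, 2.97 and 10.9 RPKM. The Aire-/- library also held a macrophage marker sum of 398 RPKM, against 51.6 RPKM in TG Aire-/- and 22.1 RPKM in TG Aire+/- cells, and its part in the values was not tested. The TG Aire+/- cells had the highest Insig1 and Idi1. Insig1 was at 11.3 RPKM in TG Aire-/- cells, 38.7 RPKM in TG Aire+/- cells and 18 RPKM in Aire-/- cells. Idi1 was at 3.34 RPKM in TG Aire-/- cells, 11 RPKM in TG Aire+/- cells and 3.97 RPKM in Aire-/- cells. Of all enzymes outside the 7, Cyp51 alone was called alongside them in the 2 comparisons with TG Aire+/- cells, at 3.76 RPKM in TG Aire-/- cells, 12.9 RPKM in TG Aire+/- cells and 4.93 RPKM in Aire-/- cells. Hmgcs1 had the same order within a smaller span, at 7.91, 15.6 and 9.52 RPKM in TG Aire-/-, TG Aire+/- and Aire-/- cells, and Sqle was at 2.29, 4.5 and 2.12 RPKM. Fdps (9.18, 8.68 and 7.71 RPKM) and Lss (1.45, 1.4 and 1.47 RPKM) were nearly level over the same 3 libraries. Srebf2 was lowest in TG Aire-/- cells, at 12.7, 21.7 and 21.4 RPKM in the same order.

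TG Aire-/- against TG Aire+/- cells, which by label differ in Aire alone, gave 0 higher and 2 lower of the 5 genes with enough RPKM, Insig1 (−1.68) and Idi1 (−1.46), where 7.49% of all genes compared were higher and 8.25% lower. The median log2 difference was −0.90 over the 5 and 0.09 over all. TG Aire-/- against Aire-/- cells, which differ in the transgene, gave none of 4 higher or lower, where 12.5% were higher and 9.93% lower, with medians of −0.43 and 0.15. TG Aire+/- against Aire-/- cells gave 2 of 5 higher and none lower, Idi1 (1.27) and Insig1 (1.06), where 2.52% were higher and 3% lower, with medians of 0.66 and 0.08. The last call of Insig1 was lost with median log ratio scaling, at 0.99. The 3 comparisons share libraries in pairs. Proliferation markers summed to 183, 155 and 75.2 RPKM in TG Aire-/-, TG Aire+/- and Aire-/- cells, and the part of division in the sterol genes was not tested. In the 9 thymus libraries the levels spanned 4.33 to 12.4 RPKM for Insig1, 3.71 to 13.5 RPKM for Idi1 and 12.9 to 57.6 RPKM for Srebf2. Tables were normalised separately, so levels are set side by side across tissues with no test.

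**Figure D5:**
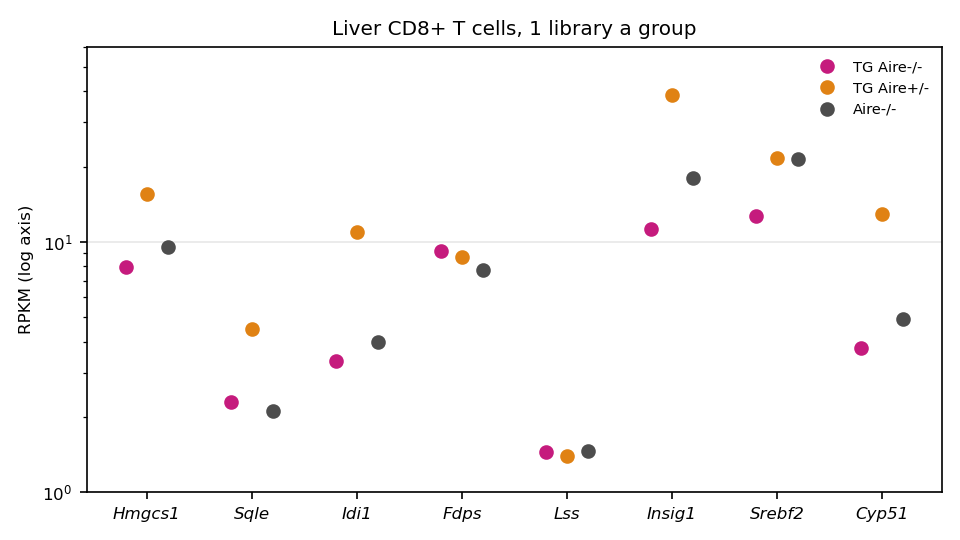
RPKM of the 7 genes and Cyp51 in liver CD8+ T cells, on a log axis, with 1 library a group and no error. Insig1, Idi1, Cyp51, Hmgcs1 and Sqle are highest in TG Aire+/- cells, while Fdps and Lss are nearly level over the 3 libraries and Srebf2 is lowest in TG Aire-/- cells.

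The 7 genes did not share 1 profile over the livers. Each gene's centred log2 profile over the 6 livers was set against the mean profile of the 7 by a root mean square distance. This was 0.44 for both Lss and Fdps, 0.46 for Hmgcs1 and 0.53 for Insig1. It was 0.84 for Srebf2, 0.94 for Sqle and 0.95 for Idi1. Such a distance counts the size of a change as well as its shape. Idi1 had the signs of Fdps in all 3 liver comparisons, with larger differences. Sqle alone of the 7 was higher in TG Aire-/- than in Aire+/+ livers. Among 6381 genes outside all lists with a mean of at least 5 RPKM, the nearest to that mean profile was Mmp15, a membrane metalloproteinase (0.248). It was at 2.28 and 18.1 RPKM in CD8-depleted livers, 1.84 and 2.19 RPKM in TG Aire-/- livers and 4.16 and 4.09 RPKM in Aire+/+ livers. The next were Rarres1, Gstm6, Them7 and Nmrk1, at up to 0.335. Of single genes, Tifa, an adaptor of NF-κB signalling, followed Sqle most closely (0.124). Tifa was at 7.61 and 42.1 RPKM in CD8-depleted livers, 8.42 and 10.7 RPKM in TG Aire-/- livers and 2.13 and 2.32 RPKM in Aire+/+ livers. The glutathione transferases Gstm3 and Gstm1 were nearest to Idi1 (0.494) and Fdps (0.358), and Ubxn4 to Srebf2 (0.099). Hmgcs1 was nearest to Mmp15, Lss to Smarca2 and Insig1 to 1810008I18Rik. With 6 livers, 1 of which is extreme for many genes, such likeness is a description only.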

How the data were processed

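The authors deposited RPKM values, reads scaled by gene length and by the mapped reads of the library, in 3 tables of 24786 genes: 6 livers, 3 CD8+ T libraries and 9 thymus libraries. STAR 2.5.2b and mm10 are named per the submitters' processing notes. For annotation, counting tool and strandedness: not given in the sources used here. Hmgcs1, Idi1 and Lss overlap annotated antisense genes, and Fdps and Srebf2 genes on their own strand, so reads of such pairs cannot be told apart. Another 4 livers, labelled with no batch, were not analysed here. Nothing in the labels says that replicates are separate animals. By Xist and Ddx3y the 2 TG Aire-/- livers differed in sex and so came from different animals, as did the 2 Aire+/+ livers. For the 2 CD8-depleted livers, both male, this is not known. The p-values measure the spread between these samples, which includes a difference of sex within the TG Aire-/- and the Aire+/+ group.

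The test was limma 3.58.1 (R 4.3.3) on log2(RPKM + 1), two-sided, all 6 livers in 1 fit with a trend and no covariate, over 12231 genes with at least 1 RPKM in at least 2 livers, with Benjamini-Hochberg adjustment. With 2 libraries a group this left 3 residual degrees of freedom. The steps were tested on simulated data. Depth was inferred from steps between low values. Only 40.2% to 49% of these were whole reads within 0.1 read, where chance gives 20%, so reads were not recovered and no count test was run. At that depth 3 reads on 2000 bases equal 0.0502 to 0.0739 RPKM, a floor that covers counting error only.

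The 7 genes, the lists around them and the markers were chosen with earlier results of these data known. All 7 were named. From the other lists, genes past the threshold were named, at most 4 a list by size; Mvd, Fdft1, Hsd17b7, Stard4, Nr1h2, Soat2 and Lcat were added after their values were seen. Some genes of the lists are counted but not reported here by name. The lists of male, acute phase and fatty acid genes were chosen after seeing the data. Other pseudocounts, filters, scalings, designs and left-out libraries were tried. Positions are from GENCODE vM21 on GRCm38.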

Additional observations from a re-analysis of the deposited data

How the results depend on the processing

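There were 2 livers a group, and depth is known only as an inferred read number. Under 16 alternatives a comparison, 294 of 333 values of the 7 genes kept direction and side of the threshold, 20 gained a call, 10 lost one and 9 turned sign; the cause was not tested unless named. The 4565 genes called in TG Aire-/- against Aire+/+ livers, 4646 in CD8-depleted against TG Aire-/- and 67 in CD8-depleted against Aire+/+ ranged over 1270 to 5102, 1294 to 4723 and 13 to 141 as each library was left out. A filter of 5 RPKM, which leaves fewer genes to test, gave 2826 and 2867 in the first 2 comparisons, median log ratio scaling 2924 in the second, and no filter and a fit of the 2 groups alone 17 and 12 in the third. Of the 7 genes, 0 to 5, 1 to 6 and 0 to 4 were called without 1 library, 5 in TG Aire-/- against Aire+/+ livers when fitted alone, and 1 in CD8-depleted against TG Aire-/- livers with no filter. Of the 20 enzymes 0 to 11, 1 to 15 and 0 to 7 were called without 1 library. In TG Aire-/- against Aire+/+ livers 2 enzymes were called with no filter, 7 with median log ratio scaling and 11 in the fit of 2 groups; in CD8-depleted against TG Aire-/- livers 4 were called with no filter and 15 with that scaling.

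Signs turned as libraries were left out for Lss (−0.23 to 0.13) in TG Aire-/- against Aire+/+ livers, for Hmgcs1 (−0.32 to 3.05), Sqle (−0.20 to 2.22), Srebf2 (−0.44 to 0.10) and Mvd (−1.03 to 1.21) in CD8-depleted against TG Aire-/- livers, and for Hmgcs1 (−1.15 to 2.22) and Idi1 (−0.27 to 3.19) in CD8-depleted against Aire+/+ livers. Srebf2 in CD8-depleted against TG Aire-/- livers was also 0.0693 with upper quartile and 0.33 with median log ratio scaling. Among other named genes the estimates turned in TG Aire-/- against Aire+/+ livers for Mvd (−0.19 with median log ratio scaling), Hsd17b7 (−0.13 with upper quartile, −0.35 with median log ratio scaling, −0.15 to 0.22 without 1 library) and Insig2 (−0.16, −0.44, −0.0808 to 0.18 in the same order), and for Mvd in CD8-depleted against TG Aire-/- livers (−0.10 with a pseudocount of 0.1). In CD8-depleted against Aire+/+ livers, where none was called, they turned without 1 library for Acat2 (−0.75 to 0.20), Mvd (−0.87 to 1.36), Lbr (−0.14 to 0.24), Mylip (−0.43 to 0.27), Npc2 (−0.0286 to 0.72), Abcg5 (−0.40 to 0.37), Abcg8 (−0.71 to 0.44), Soat1 (−0.22 to 0.50), Pdss1 (−0.0797 to 0.33), Fntb (−0.41 to 0.14) and Pggt1b (−0.0205 to 0.51). Abcg5 was also 0.0338, 0.0363 and 0.0440 there with rescaling to TPM, upper quartile and median log ratio scaling. Lss was not tested with the filter of 5 RPKM. In CD8+ T cells, rescaling to TPM (each library to the same sum) gave 1285 genes lower and 4 of the 7 lower in TG Aire-/- against TG Aire+/- cells, 1582 lower in TG Aire-/- against Aire-/- cells, and 385 higher and 534 lower in TG Aire+/- against Aire-/- cells. There median log ratio scaling gave 1 of the 7 higher, and a minimum of 1 RPKM gave 514 genes lower.

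Replicate numbers do not mark shared animals in the labels. By Xist and Ddx3y replicate 1 was male and replicate 2 female in both the TG Aire-/- and the Aire+/+ livers. In these livers replicate number and sex cannot be told apart, while both CD8-depleted livers were male. Deviations of same-numbered livers correlated over genes at −0.145 (CD8-depleted and TG Aire-/-), −0.0925 (CD8-depleted and Aire+/+) and 0.292 (TG Aire-/- and Aire+/+), so the numbers were not taken to pair samples. With the replicate number as a block 3700 genes rose and 641 fell in TG Aire-/- against Aire+/+ livers, 534 and 3893 in CD8-depleted against TG Aire-/-, and 30 and 33 in CD8-depleted against Aire+/+, and no call of the 7 genes differed.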
